A study of Mus musculus with 3 samples.

Results

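The comparison described here sets cultured mouse astrocytes against cultured neural stem cells after cells in division were removed from both, so that the difference between the cultures can be read without the mitotic programme. Cells were kept from 200 detected genes upward when no more than 20% of their unique molecular identifiers (UMIs, each standing for 1 captured RNA molecule) came from mitochondrial genes. A kept cell counted as non-dividing when Top2a, Cenpf, Ube2c, Birc5, Ccnb2, Hmmr, Cdca8 and Ckap2l, which act in mitosis, together gave it 0 or 1 UMI. The rule left 8532 of 9145 neural stem cells and 9808 of 9818 astrocytes. These 18340 cells are part of 33927 kept cells in the whole series. The 8 genes of the rule chose the cells, so their own values are a description and not a result.

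The series measured single-cell gene expression with 10x Genomics libraries from methanol-fixed cells, with 1 library for each of 3 cultures, in a study of one-carbon metabolites and cell identity. Neural stem cells came from mouse cortex at embryonic day 14.5 and grew as neurospheres of early passage, without serum, with EGF and FGF2 at 20 ng/mL. Astrocytes grew attached to coated plates in a differentiation medium with 10% fetal bovine serum. The labels allow 2 sources for them, postnatal cortex with sorting for the surface antigen GLAST, or dissociated neurospheres, and do not say which was used here. They give embryonic day 14.5 for this library as well, and no strain for either culture. No genetic change is named. The third library, astrocytes moved to a medium with metabolites, was not analysed here beyond its number of cells. Cell source, serum, growth factors, attachment and library all differ between the groups and cannot be told apart. With 1 library per group there is no test between cultures: each level is given with an exact Poisson 95% interval and each fold with an exact 95% interval, both of which cover counting error only.

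Neural stem cells of the embryonic cortex are radial glia and their derivatives. They are held in an undivided choice of fate by Notch signalling through Hes transcription factors, and in culture they depend on EGF and FGF acting through the MAP kinase cascade. Astrocytes arise from the same lineage and take up the intermediate filament Gfap, the water channel Aqp4 and genes of lipid transport, glutamate clearance and antioxidant defence. Astrocytes kept in serum are known to carry features of reactive astrocytes, which include complement, interferon response and small heat shock genes.

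Depth differed between the libraries. The non-dividing astrocytes held 50532031 UMIs, with a median of 5089 per cell, and the non-dividing neural stem cells held 12964488, with a median of 1360.5. Levels are therefore sums over all non-dividing cells of a library, scaled to counts per 1000000 UMIs (CPM). A sum does not separate the share of cells that carry a transcript from its level per cell, so shares of cells are given for some genes after each cell was thinned to 1000 UMIs. Thinning left out 1416 neural stem cells and 351 astrocytes, and at that depth the median number of detected genes was 507 in neural stem cells and 555 in astrocytes. The nuclear noncoding RNA Malat1 took 27.9% of neural stem cell UMIs and 13.7% of astrocyte UMIs, cytosolic ribosomal protein genes took 11.7% and 2.93%, and mitochondrial genes took 1.47% and 1.80%. The non-dividing cells of both libraries shared 24 cell barcodes.

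Marker genes of both labels were present in both libraries. Of 13 astrocyte markers, 13 reached 10 CPM in the astrocyte library and 12 in the neural stem cell library, with summed levels of 19256 and 6091 CPM. All 11 neural stem cell markers reached that level in neural stem cells, with a sum of 4591 CPM, and 7 of 11 did in astrocytes, with a sum of 2186 CPM. Both cultures thus carried transcripts that are common to radial glia and astrocytes. Single genes made up most of these sums, Apoe with 12466 CPM in astrocytes and 4828 CPM in neural stem cells, and Fabp7 with 1793 and 3615 CPM. Of the astrocyte markers, Aldh1l1, Slc1a2, Slc1a3, S100b, Gja1 and Sox9 were lower in astrocytes than in neural stem cells, and the rest were higher. Microglial markers were at 0 UMIs for 6 of 7 genes in astrocytes and for 7 of 7 in neural stem cells. The summed endothelial and mural markers stayed below 1 CPM in both libraries (0.515 and 0.771 CPM). Neuronal markers summed to 28.2 CPM in astrocytes and 34.8 CPM in neural stem cells, and the neuroblast gene Dcx had 1 UMI and 51 UMIs. Oligodendrocyte lineage markers summed to 139.9 CPM in astrocytes and 805 CPM in neural stem cells. Ependymal markers summed to 61.6 CPM in astrocytes and 2.39 CPM in neural stem cells. Meningeal fibroblast markers summed to 197 CPM in astrocytes, of which Ogn gave 188.6 CPM while Lum, Col1a2 and Col3a1 were at 0, and to 3.32 CPM in neural stem cells.

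Removal of dividing cells was nearly complete in astrocytes and less so in neural stem cells. The rule took out 613 neural stem cells (6.70%, exact 95% interval 6.20% to 7.24%) and 10 astrocytes (0.102%, 0.0489% to 0.187%). Shallow cells can hide division genes. Among kept cells thinned to 1000 UMIs, dividing cells included, 10.1% of 7688 neural stem cells and 0.391% of 9467 astrocytes had at least 1 UMI of the 8 genes. This cutoff is looser than the 2 UMIs at which the rule removed a cell. The shares therefore cannot be set against those above and do not measure hidden division. The 496 neural stem cells with 1 UMI, just inside the rule, had 28.0 CPM of Mki67 and 78.1 CPM of Prc1, both genes of dividing cells. The 132 with 2 UMIs, just outside it, had 54.1 and 267 CPM, and the 8036 with none had 2.23 and 13.1 CPM. Pclaf, a factor bound to replicating DNA, followed the same steps in neural stem cells at 20.0, 197 and 608 CPM for 0, 1 and 2 UMIs. Among all non-dividing cells Mki67 stood at 3.93 CPM in neural stem cells (2.93 to 5.17) and had 0 UMIs in astrocytes.

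Of 7865 genes that reached 10 CPM in at least 1 of the libraries, 1962 were at least 2-fold higher and 1937 at least 2-fold lower in non-dividing astrocytes than in non-dividing neural stem cells. These are 24.9% and 24.6% of the genes tested, and each count of list members below is to be read against them. A gene under 10 CPM in 1 library was tested only through the other, so its direction was fixed by the level. A call needs a log2 ratio (astrocytes divided by neural stem cells) of 1 or more in size, computed on CPM + 1, which understates the difference of low genes. Its median over all genes tested was 0.058. At least 4-fold differences numbered 718 higher and 701 lower, and at least 16-fold differences 140 and 68. The genes called higher together took 42.4% of astrocyte UMIs and 9.12% of neural stem cell UMIs, and the genes called lower took 20.8% and 56.7%. With Malat1 left out of the totals the split became 1549 higher and 2369 lower (19.7% and 30.1% of genes tested), and the median moved by -0.25 to -0.19. All 1549 and all 1937 earlier lower calls stood in both scalings, 413 higher calls were under 2-fold without Malat1 and 432 genes newly passed it as lower.

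**Figure D1:**
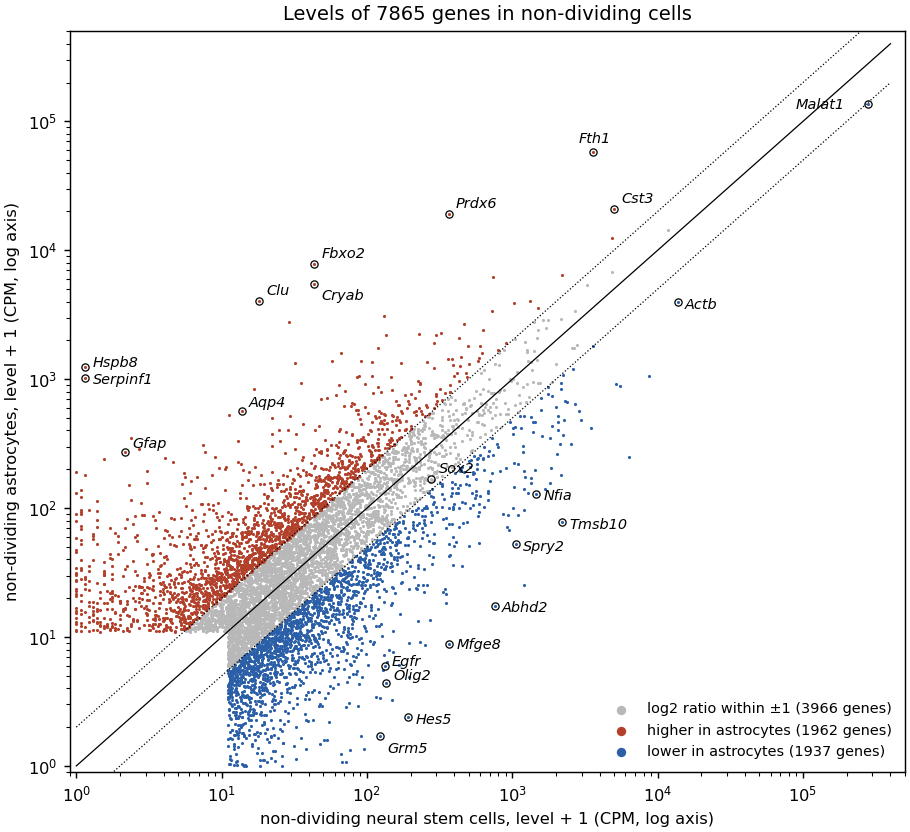
Level of each of 7865 genes in non-dividing neural stem cells (horizontal axis) and non-dividing astrocytes (vertical axis), both as CPM + 1 on log axes, 1 point per gene and 1 library per culture. The solid line marks equal levels and the dotted lines 2-fold, with 1962 genes coloured as higher in astrocytes and 1937 as lower, and Hspb8 and Serpinf1 lie at the far left with almost no neural stem cell UMIs.

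The transcripts furthest toward astrocytes came from several functions and were close to absent in neural stem cells. Hspb8, a small heat shock protein that works with Bag3 in chaperone-assisted autophagy (chr5:116408491-116422864, mm10), stood at 1239 CPM (1229 to 1249) in astrocytes against 2 UMIs, or 0.154 CPM (0.0187 to 0.557), in neural stem cells. Serpinf1, which encodes the secreted pigment epithelium-derived factor (chr11:75409769-75422701), stood at 1015 CPM (1006 to 1024) against 2 UMIs, a ratio of 6581-fold with an interval of 1822 to 54341. Clu, a secreted chaperone and lipid carrier (chr14:65968483-65981547), was at 4068 and 17.1 CPM, 238-fold (208 to 272) higher. These are among 13 genes with the largest log2 ratio at 50 CPM or more, and the others were Ogn, Fbxo2, Lbp, Ass1, Cd59a, Elobl, Plscr2, Gfap, Cryab and Omd, at log2 ratios from 6.83 to 7.57. Ogn and Elobl had 0 neural stem cell UMIs and were at least 815-fold and at least 562-fold higher when 3 counts stood in for the 0. Fbxo2, an F-box protein that binds glycoproteins, was the most abundant of them at 7848 CPM against 42.2 CPM. At 1000 UMIs per cell, 64.5% of astrocytes and 0.0281% of neural stem cells had a Hspb8 UMI, and 93.9% and 0.0234% did without thinning.

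The transcripts furthest toward neural stem cells were led by the Notch effector Hes5, with Grm5, Ppp1r16b, Dpp6, Fbln2, Slc6a11, Nrgn, Trib2, Abhd2, Mfge8, Smoc1, Lrrn1 and Eps8 after it, at log2 ratios from -6.33 to -5.07. Hes5, a repressor that keeps progenitors undifferentiated (chr4:154960923-154962371), stood at 190.4 CPM (183 to 198) in neural stem cells and 1.39 CPM (1.08 to 1.75) in astrocytes, 137-fold (108 to 177) lower. Grm5, a metabotropic glutamate receptor of immature astrocytes and neurons (chr7:87584168-88134907), was at 122 and 0.693 CPM. Abhd2, a lipid hydrolase, was the most abundant at 757 CPM against 16.2 CPM. A Hes5 UMI was present in 13.7% of neural stem cells and 0.0952% of astrocytes at 1000 UMIs per cell, and in 19% and 0.653% without thinning.

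In CPM the largest differences lay in a few abundant transcripts. Fth1, the ferritin heavy chain that stores iron, stood at 58281 CPM in astrocytes and 3567 CPM in neural stem cells, 16.3-fold (16.2 to 16.5) higher and the largest difference upward in CPM among the genes the rule for names allows. Prdx6, a peroxiredoxin and phospholipase, was at 19210.5 and 364 CPM, and Cst3, a secreted inhibitor of cysteine proteases, at 21069 and 4987 CPM. Apoe, the main lipid carrier of astrocytes, was at 12466 and 4828 CPM, Ldhb at 6216 and 737, and the metallothionein Mt3 at 6445 and 2181. The largest differences downward were Malat1 (chr19:5795690-5802672) at 136794 CPM in astrocytes and 279265 CPM in neural stem cells, and the cytoskeletal actin Actb at 3959 and 13802 CPM. The actin-binding Tmsb10 was at 77.1 and 2191 CPM, 28.4-fold (27.5 to 29.4) lower, and the secreted growth factor Ptn at 482 and 2980.2 CPM. Cox7c, Cbx3, Ppp1r14b and Fabp7 complete the 8 largest, at log2 ratios of -2.35, -2.75, -2.13 and -1.01.

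Leaving out dividing cells changed few genes outside the cell cycle. Among all kept cells 1913 genes were called higher (24.2%) and 1990 lower (25.1%) of 7919 tested, and 3782 of these calls were shared with non-dividing cells. The shared calls are 99.1% of the higher and 94.8% of the lower calls of all cells, and 96.6% and 97.4% of those of non-dividing cells. No gene was called in opposite directions, and 81 of 7949 genes moved by more than 0.5 in log2 ratio. The 2 sets share most of their cells, so this overlap is a count and not support for either. Of 104 lower calls that were lost, 30 were in the lists of division genes and 74 were not. The lists are not complete, and the largest shifts among the 74 were in Sgo2a, Sgo1, Knl1 and Kif4, which also act in mitosis. Outside those lists, and among genes at 50 CPM or more, the 8 with the largest shift were Pttg1, Tuba1b, Stmn1, Selenoh, Pmp22, H2afz, Ube2s and Dnajc9. Pttg1, the securin that inhibits the protease that parts sister chromatids, moved from -3.32 to -1.11, and the tubulin Tuba1b from 0.72 to 1.51. Stmn1, which destabilises microtubules, moved from -0.35 to 0.32, and the histone variant gene H2afz from -0.86 to -0.31, so neither was called.

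**Figure D2:**
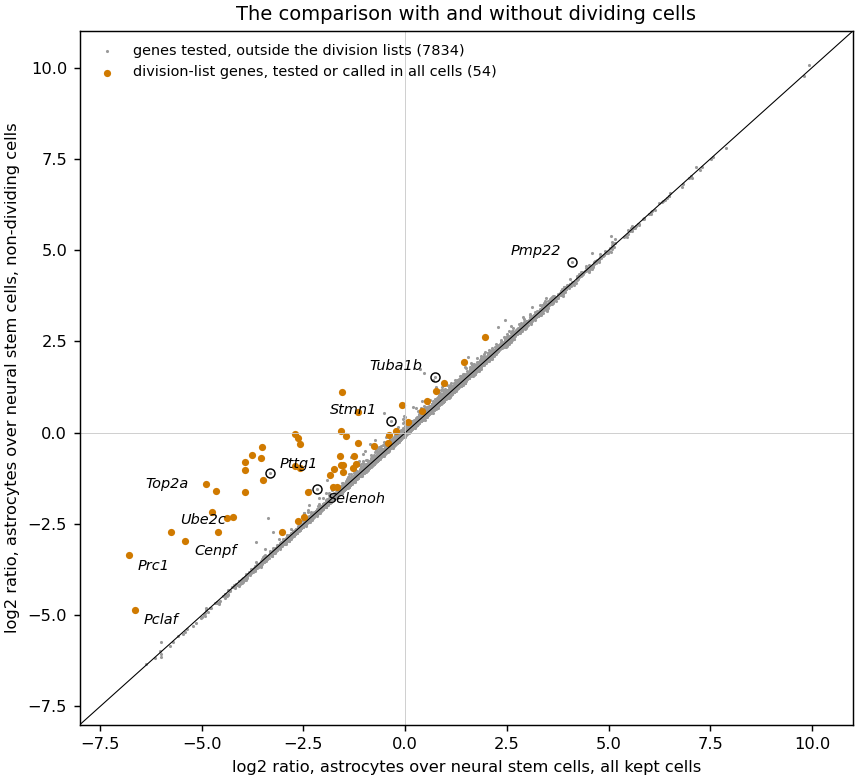
Log2 ratio (astrocytes divided by neural stem cells) in all kept cells (horizontal axis) and in non-dividing cells (vertical axis), 1 point per gene, with genes of the division lists in orange and 5 other named genes circled. Most genes lie near the line of equal ratios, and the division genes lie above it, with Pclaf at -6.65 among all cells and -4.84 among non-dividing cells.

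A minority of the listed division genes reached 10 CPM in non-dividing cells. Only 1 of the 8 rule genes, Cenpf, still reached 10 CPM, at 14.9 CPM in neural stem cells and 1.05 CPM in astrocytes. Among other G2 and M phase genes, 13 of 48 reached the level, 2 were called higher (Tubb4b and Arl6ip1) and 4 lower (Prc1, G2e3, Lbr and Cenpa). Among S phase genes, 17 of 47 reached it, 2 were higher (Rpa2 and Dut, of which Dut was under 2-fold without Malat1 at 0.89) and 7 lower, led by Pclaf at 31.7 CPM against 7 astrocyte UMIs. The list of D cyclins, their inhibitors and quiescence genes was mixed, with 8 higher and 6 lower of 24. Ccnd3 was at 115 CPM in astrocytes and 25.8 CPM in neural stem cells, Ccnd1 at 17.9 and 42.6 CPM, and Ccnd2 at 104 and 139 CPM without a call. The stress-induced growth arrest genes Gadd45a, Gadd45b and Gadd45g were 13.01-fold, 12.2-fold and 5.89-fold higher in astrocytes. The antiproliferative Btg1 and Btg2 were 12.4-fold and 8.26-fold lower. The CDK inhibitor Cdkn1a was at 49.8 CPM (47.9 to 51.8) against 19.6 CPM (17.3 to 22.2).

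Progenitor factors were lower in non-dividing astrocytes for the most part. Of 24 at the level, 14 were called lower and 2 higher (median log2 ratio -1.34, or -1.61 without Malat1, beside 0.058 for all genes tested). Every list median below is such a log2 ratio over members at the level. Sox11, a transcription factor of neural precursors, stood at 77.2 CPM in neural stem cells and 5.03 CPM in astrocytes. Sox2, the stem cell factor shared with astrocytes, was at 276 CPM (267 to 285) and 168 CPM (164 to 171), and the intermediate filament Nes at 121 CPM (115 to 127) and 62.6 CPM (60.5 to 64.8). Neither Sox2 nor Nes reached 2-fold here, while Nes passed it without Malat1, at a log2 ratio of -1.20, and among all kept cells, at -1.04. The higher members were Hey1 at 80.7 CPM against 11.6 CPM and Hopx at 145 against 69.03 CPM, the latter under 2-fold without Malat1 (0.80). Both are known in quiescent or outer radial glia.

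The Notch pathway, in which Delta and Jagged ligands on 1 cell activate receptors on the next, was lower at the level of ligands and feedback. Of 18 members 12 were lower and 0 higher (median -1.61). Hey1, a relative of the Hes factors, was counted with the progenitor factors above and not in this list. It went the other way, at 68.1 to 91.4 CPM over the astrocyte clusters and 4.04 to 33.4 CPM over the neural stem cell clusters. The ligand genes Jag1, Dll1 and Dll3 were at 36.8, 21.7 and 31.3 CPM in neural stem cells and at 0.356, 0.297 and 0.989 CPM in astrocytes. The receptor Notch3 was at 13.04 and 3.48 CPM, but its clusters overlapped, at 3.40 to 20.3 CPM in neural stem cells and 3.24 to 9.73 CPM in astrocytes, and against neural stem cell cluster 2 (described with the clusters) its log2 ratio was 0.026. The feedback inhibitor Nrarp, a direct Notch target, had 4 UMIs in astrocytes and 11.6 CPM in neural stem cells. Jag1 was 103-fold (64.6 to 176) lower.

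Receptors and feedback genes of EGF and FGF signalling followed the same direction, in a comparison where only the neural stem cells received both factors. Of 21 members 13 were lower and 3 higher (median -1.49). The receptor Egfr stood at 131 CPM in neural stem cells and 4.97 CPM in astrocytes, 26.4-fold (23.1 to 30.2) lower. Genes induced by MAP kinase activity were lower with it: the inhibitor Spry2 at 1054 and 51.6 CPM, and the ETS factors Etv1 at 166 and 5.05 CPM and Etv5 at 28.2 and 2.12 CPM. The higher members were components of the cascade itself, Map2k1 at 56.95 against 17.3 CPM, Hras at 204 against 64.2 and Mapk3 at 54.9 against 25.5, the last of which was under 2-fold without Malat1 (0.83). Wnt and Hedgehog genes had 10 lower and 1 higher of 14 (median -1.76). The Wnt ligands Wnt7b and Wnt5a were 69.9-fold and 7.22-fold lower, the Hedgehog receptor and target Ptch1 14.4-fold lower and the receptor Fzd9 22.2-fold lower, while the secreted Wnt inhibitor Sfrp1 was 4.85-fold higher.

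Most genes at the level in the lists of other neural lineages were also higher in non-dividing neural stem cells. Of 11 oligodendrocyte lineage genes 9 were lower in astrocytes and 0 higher (median -3.46). Olig2 stood at 134 CPM (128 to 141) against 3.36 CPM (2.88 to 3.91), the precursor receptor Pdgfra at 20.98 CPM against 8 UMIs, and Sox10 at 13.7 CPM against 0 UMIs, at least 231-fold lower. Of 13 neuronal lineage genes 10 were lower and 1 higher (median -2.43). The lower ones named are Grm5, Dpp6, Nrgn and the adhesion gene Ncam1, at 259 and 24.3 CPM, which precursor cells also express. Stmn2 was the higher one, at 16.5 CPM against 3 UMIs. The separate panel of neuronal markers did not show such a difference. It summed to 28.2 CPM in astrocytes and 34.8 CPM in neural stem cells, and 1 of 10 markers reached 10 CPM in each library. Of 18 genes of glutamate and GABA uptake and reception 10 were lower and 2 higher (median -1.26). The GABA transporter Slc6a11, known from astrocytes in tissue, was at 75.2 CPM in neural stem cells and 0.336 CPM in astrocytes. The AMPA receptor gene Gria1 was 17.98-fold higher in astrocytes.

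Astrocyte genes did not move as 1 group. Of 32 at the level 10 were higher and 7 lower (median 0.36, or 0.10 without Malat1). Gfap (chr11:102887336-102900912) stood at 272 CPM (267 to 276) in astrocytes and at 1.16 CPM (0.648 to 1.91), from 15 UMIs, in neural stem cells. Aqp4 was at 566 and 12.7 CPM, 44.5-fold (38.1 to 52.1) higher. A Gfap UMI was found in 18.2% of astrocytes and 0.155% of neural stem cells at 1000 UMIs per cell, and in 46.4% and 0.164% without thinning. Genes that mark both radial glia and astrocytes stood slightly higher in neural stem cells: the glutamate transporter Slc1a3 (GLAST) at 387 CPM against 206 CPM, and Sox9 at 422 against 256 CPM, neither past 2-fold. Without Malat1 Slc1a3 passed it, at a log2 ratio of -1.17. Its direction turned against neural stem cell cluster 2, which had 109 CPM of Slc1a3, below each astrocyte cluster (202 to 275 CPM). Slc1a3 is the antigen of the sort that the labels describe for postnatal astrocytes. The gliogenic factors Nfia and Nfib, which switch progenitors to glia, were 11.6-fold and 8.85-fold lower in astrocytes, at 127 against 1466 CPM for Nfia. S100b was at 11.8 CPM against 32.9 CPM, and Agt at 2.18 against 16.7 CPM.

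Radial glia genes that persist in immature glia were mostly lower, with 10 lower and 5 higher of 18 (median -1.05). Mfge8, a secreted bridge for phagocytosis, stood at 366 CPM in neural stem cells and 7.86 CPM in astrocytes, Sox8 at 126 and 9.18 CPM, and the chondroitin sulfate proteoglycan Vcan at 24.3 and 0.930 CPM. Higher members were the matrix protein Sparc at 3113 CPM against 131 CPM, the filament Vim at 2690.4 against 467 CPM, and the hyaluronan receptor Cd44 at 15.4 against 4.47 CPM.

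**Figure D3:**
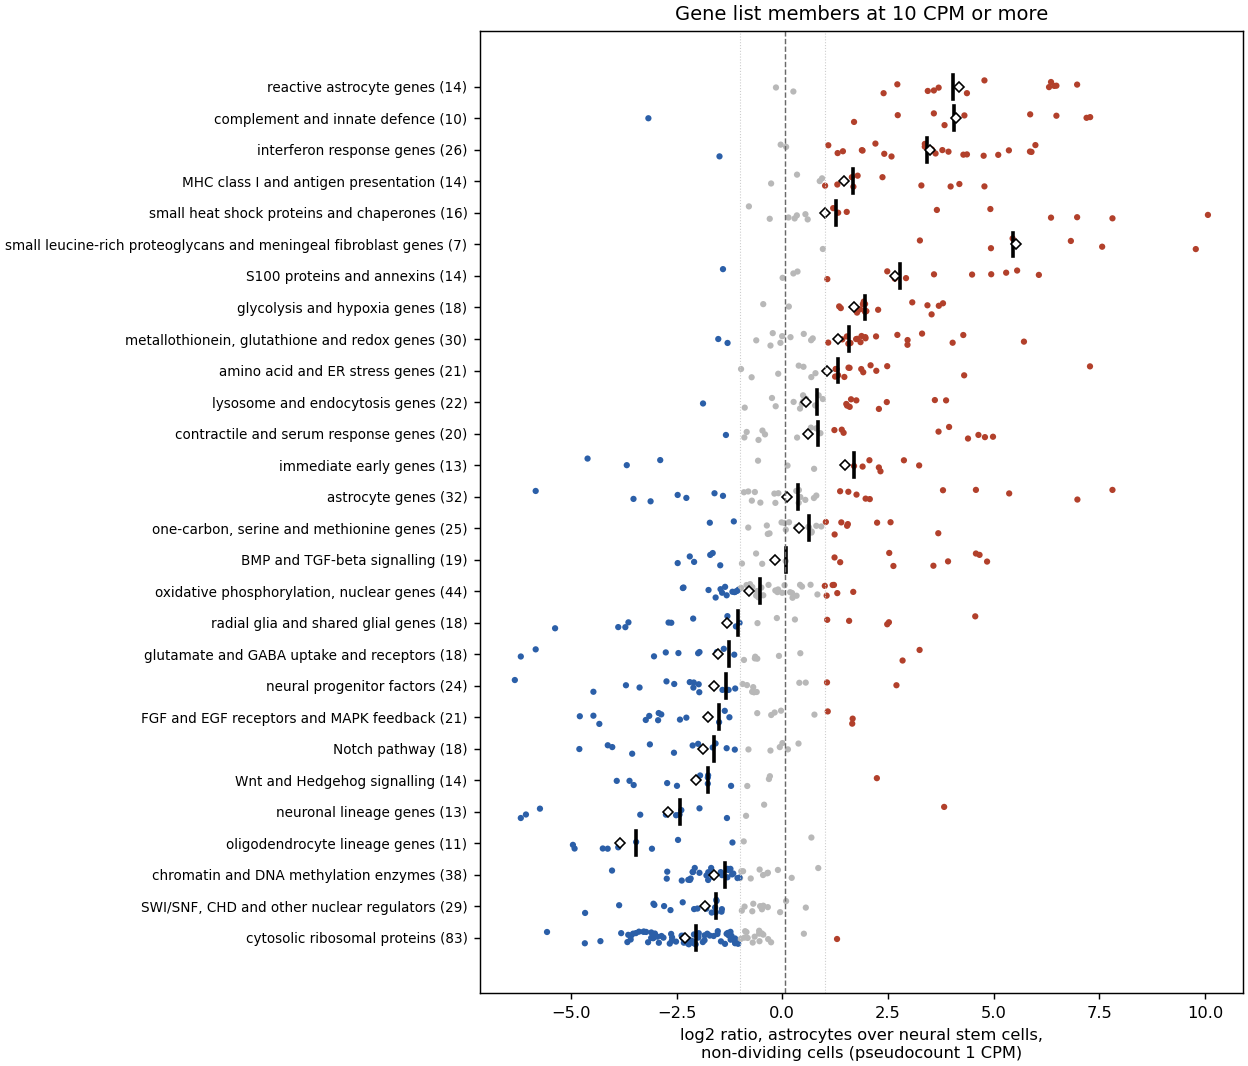
Log2 ratio (astrocytes divided by neural stem cells) in non-dividing cells for each member of 28 gene lists that reached 10 CPM, red from 1 upward, blue from -1 downward, grey between; the vertical scatter within a list has no meaning. The black bar is the list median, the diamond the same median with Malat1 left out of the totals, and the dashed line the median of 0.058 over all genes tested, with the median of small leucine-rich proteoglycan genes furthest right at 5.45 and that of oligodendrocyte lineage genes furthest left at -3.46.

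Genes of reactive astrocytes and innate defence were higher in the serum culture. Of 30 listed reactive genes 16 were under the level. Of the 14 at the level 12 were higher and 0 lower (median 4.03). Among them 4, Lcn2, Cxcl10, C3 and Psmb8, had 0 UMIs in neural stem cells, a count made after the values were seen. These 4 passed the level only through astrocytes, which fixed their direction. Cryab, given below with the chaperones, is counted in both lists. The complement gene C3 stood at 88.6 CPM (85.98 to 91.2) against 0 UMIs, at least 383-fold higher, and the membrane protein gene Tm4sf1 at 92.1 CPM against 1 UMI (1194-fold (214 to 47182)). Of 27 complement and innate defence genes 17 were under the level, and of the 10 at the level 9 were higher and 1 lower (median 4.07). Lbp, which binds bacterial lipopolysaccharide, was at 179 CPM against 2 UMIs, the complement inhibitor Cd59a at 349.7 against 1.39 CPM, and the peptide gene Defb1 at 57.3 CPM against 0 UMIs. The lower one was the chemokine Cxcl12, at 11.2 CPM in neural stem cells and 0.356 CPM in astrocytes. Microglial markers, given above, were at or near 0 in both libraries.

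Interferon response genes were higher in 23 of 26 members at the level and lower in 1 (median 3.43, or 3.50 without Malat1). Ifitm3, which blocks viral entry, had 195 CPM (191 to 199) in astrocytes and 2.08 (1.37 to 3.03) in neural stem cells, and Ifi27 at 242 against 3.09 CPM. The ubiquitin-like Isg15 was at 79.4 CPM against 5 UMIs and Ifit3 at 68.6 CPM against 9 UMIs. Ifit3 has a near-identical neighbour, Ifit3b, and reads may be split between them. The receptor gene Ifnar1 was the lower member, at 22.9 and 7.54 CPM. Of 14 MHC class I and antigen presentation genes 10 were higher and 0 lower (median 1.66). The class I chains H2-K1 and H2-D1 were 21.9-fold and 10.5-fold higher, and the immunoproteasome gene Psmb8 was at 26.5 CPM against 0 UMIs. A small set of 85 astrocytes, grouped by clustering and led by Isg15 and Ifit1, had 2173 CPM of Isg15, while the 4 larger astrocyte clusters had 52.8 to 66.9 CPM.

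Interferon-responsive promoters often hold the interferon-stimulated response element, a pair of GAAA repeats bound by STAT and IRF factors. Its core, searched as GAAA, any 2 bases and GAAA again, was looked for on both strands, overlaps included, from 250 bases before to 50 after each RefSeq start in GRCm38.p6. It was present in 3.44% of 32851 promoters, or in at least 1 promoter of 3.99% of 27025 genes, and in 10 of 22 interferon list members that matched the table. Among the members named here, Ifitm3, Isg15 and Ifit3 held it. Their promoters are shown because the 3 genes are among the 4 largest differences of the list and carry 2 or 3 matches each, in capitals, and a match is a description and not evidence of binding. Ifitm3 lies at chr7:141010695-141010994 (minus strand), Isg15 at chr4:156200769-156201068 (minus strand) and Ifit3 at chr19:34583279-34583578 (plus strand).
Ifitm3: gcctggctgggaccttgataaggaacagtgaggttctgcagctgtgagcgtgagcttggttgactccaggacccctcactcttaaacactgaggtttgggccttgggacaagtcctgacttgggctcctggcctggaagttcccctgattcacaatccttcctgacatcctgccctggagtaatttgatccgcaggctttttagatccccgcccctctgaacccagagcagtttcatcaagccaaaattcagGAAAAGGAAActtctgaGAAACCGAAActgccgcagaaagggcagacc
Isg15: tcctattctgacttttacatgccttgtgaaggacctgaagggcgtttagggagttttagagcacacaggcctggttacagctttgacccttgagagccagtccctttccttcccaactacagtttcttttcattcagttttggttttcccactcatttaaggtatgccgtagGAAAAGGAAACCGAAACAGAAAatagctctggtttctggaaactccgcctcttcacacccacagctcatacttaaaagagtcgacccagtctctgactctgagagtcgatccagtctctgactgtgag
Ifit3: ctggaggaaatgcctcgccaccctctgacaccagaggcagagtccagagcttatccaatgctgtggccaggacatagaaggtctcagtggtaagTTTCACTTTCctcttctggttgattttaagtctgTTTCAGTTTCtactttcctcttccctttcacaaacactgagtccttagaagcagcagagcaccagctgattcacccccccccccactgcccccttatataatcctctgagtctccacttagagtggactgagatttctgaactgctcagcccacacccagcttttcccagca
The matches of Ifit3 begin 156 and 122 bases before the start, those of Isg15 begin 78, 72 and 66 bases before it and run together, and those of Ifitm3 lie just after it.

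Small heat shock proteins, chaperones that hold misfolded proteins without ATP, had the largest ratios of the chaperone list beside Clu. Of 16 members 9 were higher and 0 lower (median 1.26). Besides Hspb8, Cryab had 5451 CPM (5431 to 5472) in astrocytes and 42.3 (38.9 to 46.04) in neural stem cells, and Hspb1 at 113 CPM against 5 UMIs. The chaperones Hspa8, Hspa5 and Hsp90aa1 were called higher too, at log2 ratios of 1.20, 1.32 and 1.52, and without Malat1 Hspa8 was under 2-fold at 0.94. Other members were closer to equal, and log2 ratios were 0.15 for Hspd1, 0.29 for Hsph1, 0.34 for Dnajb1 and 0.60 for Bag3. These 7 were singled out after their values were seen. The heat shock element, searched as GAA, TTC and GAA, or TTC, GAA and TTC, with 2 bases of any kind between them, on both strands, was in 0.603% of all promoters, or 0.662% of genes, and in 3 of 10 list members with a promoter in the table, Hsph1, Hspe1 and Hspd1. The windows of Hspd1 (chr1:55087883-55088182, minus strand) and Hspe1 (chr1:55087898-55088197, plus strand) overlap. Their matches are the same bases read on opposite strands, so these 2 members are not separate matches. The element was in none of the 4 higher members that matched. That says only that these letters are not in this window.

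Extracellular matrix genes were selective. Of 24 small leucine-rich proteoglycan and meningeal genes 7 reached the level and 6 were higher (median 5.45): Serpinf1, Ogn, Omd at 121 CPM against 1 UMI and Islr at 56.1 CPM against 4 UMIs are the named ones. Of the meningeal fibroblast markers, Col1a2, Col3a1 and Lum had 0 UMIs in both libraries, while Col1a1 was at 2.08 CPM in astrocytes and 0.617 CPM in neural stem cells and Foxc1 at 6.11 and 2.55 CPM. Basement membrane and adhesion genes had 6 higher and 3 lower of 19, with Sparc and Timp2 (709 against 51.8 CPM) among the higher and Fbln2 (66.5 CPM against 4 UMIs), Lama5 and Col4a1 the lower. Its median was 0.25, and -0.0092 without Malat1. Contractile and serum response genes, targets of the actin-MRTF-SRF axis, had 9 higher and 1 lower of 20 (median 0.85). The named ones were Tagln at 249 CPM against 8.02 CPM, Ctgf at 33.1 CPM against 1 UMI (429-fold (76.9 to 16964)), Thbs1 at 37.4 against 0.540 and Cyr61 at 31.4 against 0.540. The lower one was the nonmuscle myosin Myh9.

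S100 proteins and annexins, calcium sensors at membranes, had 10 higher and 1 lower of 14 (median 2.79). Anxa5 was at 529 CPM against 10.3 CPM, Anxa2 at 108 against 1.77 and S100a6 at 86.7 against 1.85, while the lower member was S100b. Immediate early genes split, with 7 higher and 3 lower of 13. Junb and Atf3 were 12.5-fold and 17.6-fold higher, and Egr1, which responds to growth factor signals, was 35.6-fold (29.1 to 43.97) lower, with Klf10 and Btg2. Of the BMP and TGF-beta genes 9 were higher and 6 lower of 19 (median 0.080, or -0.17 without Malat1). The inhibitors of differentiation Id1 and Id3, direct BMP targets, were at 328 and 1378 CPM against 11.96 and 56.6 CPM. The BMP antagonist Nog was higher too, at 152 against 4.32 CPM, and the ligand Bmp6 stood at 15.3 CPM against 1 UMI. The receptor Tgfbr1 and the transducer Smad5 were 6.87-fold and 4.72-fold lower. In the IGF system 4 were higher and 6 lower of 13. The binding proteins Igfbp7, Igfbp5 and Igfbp3 were 23.7-fold, 5.21-fold and 3.93-fold higher, the binding protein Igfbp4 was 6.79-fold lower, and the receptors Igf1r and Igf2r were 12.9-fold and 19.8-fold lower.

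Metabolic genes were higher in astrocytes in glycolysis and in antioxidant defence. Of 18 glycolysis and hypoxia genes 16 were higher and 0 lower (median 1.95). Aldoc, the brain aldolase, was at 895 CPM against 63.2 CPM, Tpi1 at 376 against 31.6, and the lactate transporter Slc16a1 at 79.3 against 5.17. Of 30 metallothionein, glutathione and redox genes 19 were higher and 2 lower (median 1.59), and their summed level was 107484 CPM in astrocytes and 16797 CPM in neural stem cells. Besides Fth1 and Prdx6, Hmox1, which degrades haem, was 21.4-fold (17.9 to 25.7) higher and the glutathione peroxidase Gpx1 9.94-fold (9.58 to 10.3) higher. Thioredoxin (Txn1) and catalase (Cat) were the lower ones, 2.86-fold and 2.50-fold. Amino acid and endoplasmic reticulum stress genes had 14 higher and 0 lower of 21 (median 1.32). Ass1, which makes argininosuccinate in arginine synthesis, was at 238 CPM against 7 UMIs.

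Genes of lysosomes and endocytosis had 9 higher and 1 lower of 22 (median 0.82), led by the cathepsins Ctsl (1748 against 118 CPM) and Ctsb (1036 against 84.00 CPM). Cholesterol and fatty acid genes had 9 higher and 5 lower of 23, with Scd1 19.6-fold higher and Fasn 4.67-fold lower. Nuclear genes of oxidative phosphorylation had 6 higher and 13 lower of 44 (median -0.53). Ndufb10, Sdha, Uqcrc1 and Sdhc were higher by 3.21-fold to 2.30-fold, and Cox7c, Atp5k, Ndufa5 and Ndufa7 were lower. In Uqcrc1 and Sdhc the ratio was under 2-fold without Malat1 (0.97 and 0.93). Cytosolic ribosomal protein genes were lower in 66 of 83 and higher in 1 (median -2.05). Ribosomal protein genes have many near-identical copies, so their levels are uncertain.

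One-carbon, serine and methionine genes, the subject of the study, had no call in 15 of 25 members at the level, beside 3966 of all 7865 genes tested. Of 38 listed genes 25 reached the level, 8 were higher and 2 lower (median 0.63), and without Malat1 the counts were 6 and 3. The median was 0.44 against neural stem cell cluster 1 only and 1.14 against cluster 2 only. Cth, which makes cysteine by transsulfuration, stood at 21.9 CPM (20.6 to 23.2) against 0.771 CPM (0.370 to 1.42). Amd1, the S-adenosylmethionine decarboxylase of polyamine synthesis, was at 31.3 against 4.47 CPM, and Sat1, which acetylates polyamines for export, at 371 against 77.7 CPM. The serine synthesis enzyme Psat1 was at 70.9 and 23.5 CPM, but its clusters overlapped, at 59.8 to 75.1 CPM in astrocytes and 12.4 to 70.8 CPM in neural stem cells. The lower ones were spermine synthase, Sms, at 34.8 against 117 CPM, and thymidylate synthase, Tyms, at 5.03 against 12.3 CPM. Tyms is also an S phase gene, and its log2 ratio was -1.86 in all cells and -1.15 in non-dividing cells.

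Enzymes of histone and DNA methylation were lower in non-dividing astrocytes in 27 of 38 members and higher in 0 (median -1.36, or -1.62 without Malat1). Kdm6b, which removes methyl groups from histone H3 lysine 27, stood at 349 CPM (339 to 359) in neural stem cells and 20.4 CPM (19.2 to 21.7) in astrocytes, 17.1-fold (15.9 to 18.3) lower. The histone methyltransferases Setd1b and Kmt2c were 7.74-fold and 5.51-fold lower, and Tet1, which oxidises methylcytosine, was 8.86-fold lower. Chromatin remodellers and other nuclear regulators had 18 lower and 0 higher of 29 (median -1.56): Chd7 was at 229.6 and 8.09 CPM, and the SWI/SNF subunit Smarcd1 at 343 and 22.7 CPM. Among nuclear noncoding RNAs Neat1 was higher at 41.2 CPM against 3.16 CPM, and Malat1 and Kcnq1ot1 were lower.

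The comparison also moved with transcript length, in which these lists differ from other genes. Genes were divided into 5 groups by their longest annotated transcript, without ribosomal protein genes. The median log2 ratio was 0.77 in the shortest group, then 0.66, 0.016, -0.36 and -0.83 in the longest. Calls higher in astrocytes made up 40.8% of the shortest group and 9.51% of the longest, and calls lower 10.4% and 44.4%. The median length was 6704.5 bases in the methylation enzymes, 8187 in the remodellers, 6258 in neuronal lineage genes and 1561 in redox genes, beside 3338 over all genes with a length. The chromatin medians were -1.36 and -1.56, and the median of the longest group was -0.83. Kdm6b, Chd7 and Smarcd1 were named for their large ratios, so they are not set against these medians. What length contributes to any list was not tested.

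**Figure D4:**
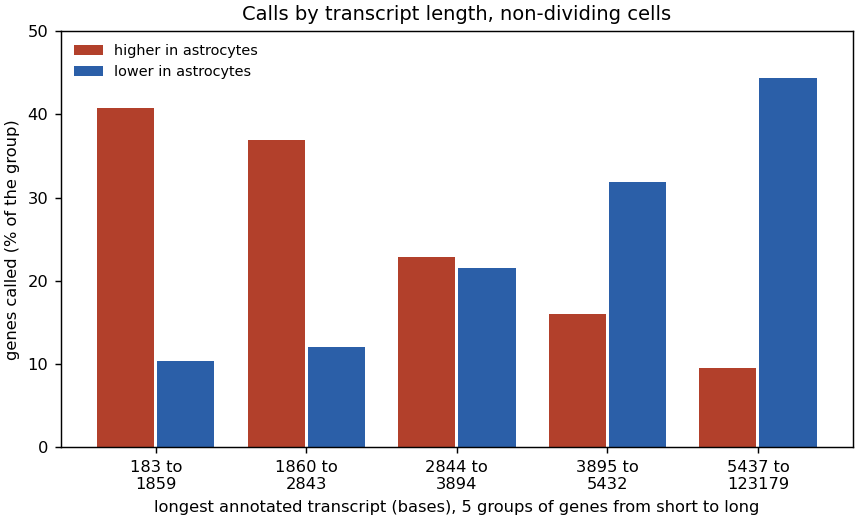
Share of genes called higher (red) or lower (blue) in non-dividing astrocytes, in percent of each of 5 equal groups of genes ordered by the length of the longest annotated transcript in bases. Higher calls go from 40.8% in the shortest group to 9.51% in the longest, and lower calls from 10.4% to 44.4%.

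The cytoskeleton differed in subunits. Of 17 tubulin, stathmin and filament genes 10 were higher and 2 lower (median 1.60). Tubb2a was at 580.2 CPM against 82.5 CPM and Tubb6 at 17.9 against 1.54, while Tubb2b stood at 88.5 against 212 CPM and the nuclear lamin Lmnb1 at 2.67 against 28.5. Tubulin genes are near-identical in sequence, so reads may be misplaced among them. Of 11 ependymal list genes 7 were under the level and all 4 at the level were higher. Rsph1 was at 38.3 CPM against 1 UMI and the cilia factor Foxj1 at 22.8 against 2.16 CPM. The whole list summed to 7.71 CPM in neural stem cells. These 4 thus passed the level only through astrocytes, which fixed their direction.

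Within each library the cells fell into clusters, which show how evenly the differences were spread. Clusters of at least 100 cells numbered 4 in each library, and none was given a cell type name. Neural stem cell cluster 1 (4598 cells) was led by Thrsp, Slc4a4 and Sparcl1, and cluster 2 (3536 cells) by Ppp1r16b, Lhfpl3 and Chd3, with Pdgfra among its first 10. Cluster 3 (163 cells) was led by Pclaf, Pttg1 and Cenpa, so cells with division genes remained, and cluster 4 (147 cells) had a median of 2888 UMIs. Astrocyte clusters 1 (4681 cells) and 2 (3860 cells) were led by Cnmd, Ucma and Wisp2 and by Npvf, Nog and Hspb1. Cluster 3 (611 cells) had a median of 918 UMIs and was led by Neat1, and cluster 4 (571 cells) by Ccl2, Cxcl10 and Nupr1, with Cdkn1a next.

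Most called differences held for every pair of clusters. Of 3899 called genes (49.6% of those tested), 3135 (80.4%) had no overlap, meaning that each astrocyte cluster stood on the same side of each neural stem cell cluster. Overlap was counted only among called genes, which were chosen for a 2-fold difference between these same cells. A high share is therefore partly built in. No share over all genes tested is given beside it, so the count is not evidence of evenness. A finer clustering (Leiden resolution 1), with 11 astrocyte and 7 neural stem cell clusters, gave 76.8%. For lower calls the share was 81.2% here and 71.9% in the finer clustering, and for higher calls 79.6% and 81.7%. Clusters are parts of 1 library and not replicates, and the count describes spread within these libraries. Hspb8 was at 904 to 1442 CPM in the astrocyte clusters and 0 to 0.282 CPM in the neural stem cell clusters, Clu at 3617 to 4511 and 3.00 to 28.4, and Fth1 at 57076 to 66932 and 2031 to 5148. Hes5 varied in neural stem cells, at 53.04 to 321 CPM with the lowest in cluster 2, and was at 0 to 1.88 CPM in astrocytes. Olig2 was at 59.7 to 376 and 1.95 to 5.56 CPM and Nfia at 1008 to 1797 and 110.3 to 143 CPM. Slc1a3, which had no call, overlapped: it was at 109 to 690.4 CPM in neural stem cell clusters, lowest in cluster 2, and 202 to 275 CPM in astrocyte clusters. Cdkn1a varied within astrocytes instead, at 31.7 to 312 CPM, against 9.83 to 32.4 CPM in neural stem cells, and Gfap was at 97.99 to 409 CPM with the lowest in cluster 4. Called genes with overlapping clusters also included Psat1, Hopx, Arl6ip1, Tuba1b, Dut, Ccnd1, Pttg1, Fabp7, Agt, Lama5, Kcnq1ot1 and Malat1.

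**Figure D5:**
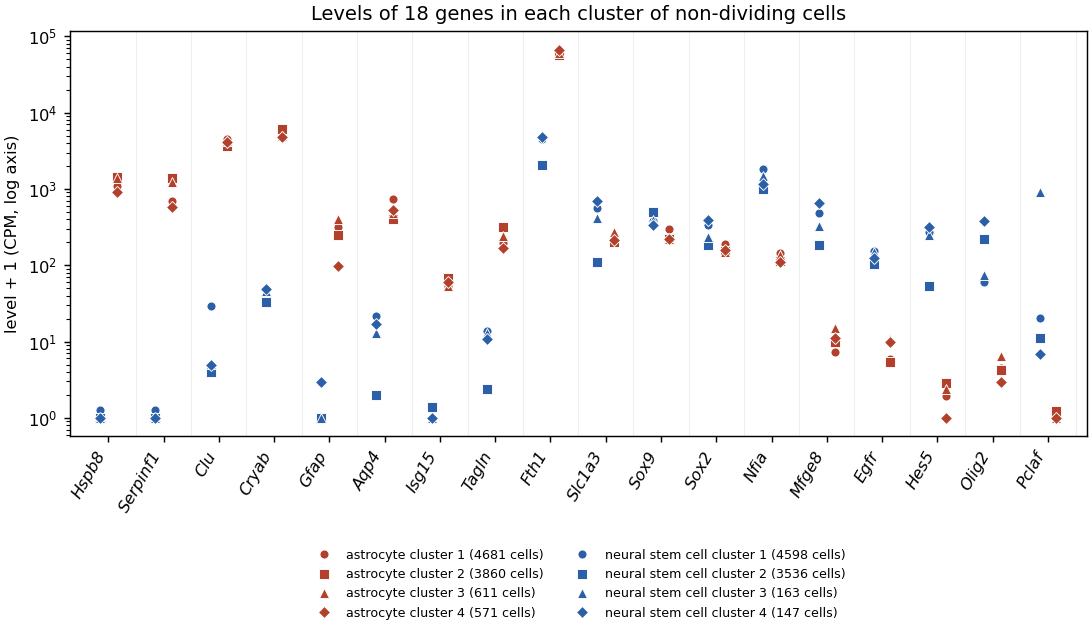
Level of 18 genes in each cluster of at least 100 non-dividing cells, as CPM + 1 on a log axis, with 4 neural stem cell clusters in blue and 4 astrocyte clusters in red, 1 marker per cluster and the number of cells in the legend. Astrocyte and neural stem cell clusters separate for Hspb8, Clu and Fth1 and for Hes5 and Egfr, and mix for Slc1a3.

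The medians of several lists depended on which neural stem cells were compared. Against cluster 1 alone the median of astrocyte genes was -0.089, and against cluster 2 alone it was 2.07, so its sign flips. Radial glia genes had medians of -1.46 and 0.0027 in the same 2 comparisons. Basement membrane and adhesion genes went from -0.21 to 1.82, BMP and TGF-beta genes from -0.051 to 0.36, and D cyclins and CDK inhibitors from -0.026 to 0.070. Progenitor factors kept their direction, at -1.37 and -0.87, as did Notch genes at -1.35 and -1.47 and oligodendrocyte lineage genes at -1.87 and -4.25. Over all genes, 93.1% of higher and 87.8% of lower calls were also made against cluster 1, and 96.3% and 88.9% against cluster 2. The only gene called in opposite directions was Lrig1, a feedback inhibitor of EGF receptors, with a log2 ratio of -1.17 overall and 1.02 against cluster 2. These comparisons were added after the clusters were seen.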

How the data were processed

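The deposited files hold UMI counts per gene and cell barcode, made by the authors with Cell Ranger 3.0.2 on mm10, per the labels' protocols. Seurat 3.1.1 is named in the submitters' processing notes without a role. The neural stem cell and astrocyte matrices were used, and the third library only for its number of cells. The cells, genes and 39 gene lists were chosen with earlier results of these data known.

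Cells with at least 200 genes and at most 20% mitochondrial UMIs were kept, and those with 0 or 1 UMI of the 8 division genes were summed per library and scaled to counts per 1000000 UMIs (CPM). Genes at 10 CPM or more in either library were compared as log2 of CPM + 1, and 2-fold was the threshold. With 1 library per group no test across cultures was made. Intervals are exact at 95%. A fold against 0 UMIs used a floor of 3 counts. Named genes were the 13 largest ratios in each direction at 50 CPM, the 8 largest CPM differences in each direction, the 8 largest shifts on leaving out dividing cells, and up to 4 called members per list and direction with the defining members. Mitochondrial, ribosomal, haemoglobin, sex-linked and clone-named genes were left out of these picks, and other genes named in the text are list members or were picked after their values were seen. Some genes that the rule picks are not reported here.

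Scrublet called 0 doublets in each library, a result taken as a failure of the caller. Doublets therefore remain in the data, and leaving out the 8% highest scores was an alternative. Clusters used 2000 variable genes, 30 principal components, 15 neighbours and Leiden resolution 0.5. Coordinates come from GENCODE and promoters from RefSeq (GRCm38.p6). In all 18 alternatives were run, 3 of them chosen after seeing the data. The scripts were tested on simulated data. The work ran in scanpy 1.11.5 with igraph 0.11.9 and scikit-learn 1.9.0, under Python 3.11.15 (scipy 1.17.1, numpy 2.4.6, pandas 2.3.3, matplotlib 3.10.9), and edgeR 4.0.16 in R 4.3.3 gave TMM factors only.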

Additional observations from a re-analysis of the deposited data

How the results depend on the processing

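No paired analysis was possible because each group is 1 library. Across the 15 alternatives planned with the design no called gene changed direction, but some calls were lost. In cells of 1500 to 4000 UMIs, which brings the depths closer, 1735 astrocytes and 3088 neural stem cells remained. There 2039 genes were higher and 1670 lower, and 91.6% of the main higher calls and 82.0% of the main lower calls were also made. The median log2 ratio over all genes tested, 0.058, was -0.19 with totals without Malat1, -0.071 without mitochondrial and ribosomal protein genes, 0.21 with TMM factors and 0.39 at a level of 50 CPM. The share of calls that were higher was 50.3%, and 39.5% without Malat1. At 50 CPM, where fewer genes were tested, 1018 genes were higher, 720 lower, and 1694 were genes called in all cells and also in non-dividing cells. A pseudocount of 10 CPM gave 1152 lower and 2458 shared, and no level beyond 20 UMIs gave 2949 lower. The median of basement membrane genes was -0.0092 without Malat1 and -0.21 against neural stem cell cluster 1 only. That of BMP and TGF-beta genes was -0.17 without Malat1, -0.050 without mitochondrial and ribosomal protein genes and -0.051 against cluster 1. Other G2 and M phase genes changed from -0.083 to 0.068 with TMM, 0.87 at 50 CPM, 0.096 with 0 UMIs of the division genes, 0.065 also without S phase cells, 0.024 in cells of 1500 to 4000 UMIs, 0.016 against cluster 1, 0.39 against cluster 2 and 0.17 without cluster 3 of each library. D cyclins and CDK inhibitors changed from -0.15 to 0.0014 with TMM, 0.025 in cells of 1500 to 4000 UMIs and 0.070 against cluster 2. S phase genes were at 1.14 at 50 CPM. Astrocyte genes were at -0.089 against cluster 1 and radial glia genes at 0.0027 against cluster 2. Against cluster 2 the log2 ratios of Fabp7, Pttg1, Agt and Notch3 were 0.22, 0.19, 0.082 and 0.026. Where the construction does not show it, the cause was not tested. Neural stem cells were the shallower library, which limits genes near 10 CPM there.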

Other observations

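Elobl, at 130 CPM in non-dividing astrocytes and 0 UMIs in neural stem cells, was unevenly spread. It had a UMI in 8.87% of astrocytes, and its level was 26.0 to 195 CPM over the astrocyte clusters. Among cytosolic ribosomal protein genes, Rps28 stood at 24.3 CPM in astrocytes and 1199 CPM in neural stem cells, a log2 ratio of -5.57, and Rpl37 at 249 and 6369 CPM, a log2 ratio of -4.67. Rpl7l1 was the member called higher, with a log2 ratio of 1.30.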
